A study of Saccharomyces cerevisiae with 6 samples.

Results

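The 10 genes described here encode the enzymes that make the branched-chain amino acids isoleucine, valine and leucine in the budding yeast Saccharomyces cerevisiae: ILV1, ILV2, ILV3, ILV5, ILV6, LEU1, LEU4, LEU9, BAT1 and BAT2. They were taken as a list of the pathway's enzymes and found by systematic name among the 6256 genes with a probe on the array. Expression was measured in F3, a sulfur dioxide-resistant mutant obtained through evolutionary engineering, and in the reference strain it is set against. The series design gives yeast minimal medium at 30 °C and harvest in early exponential phase at an OD600 near 1.0, while the growth label gives overnight culture in the rich medium YPD. YPD is read here as a preculture medium, although no label says so. There were 3 cultures of each, and the RNA of every culture was hybridised to a one-colour Agilent array of its own. F3 is 1 selected mutant, and the genotypes of both strains, including any auxotrophic markers, are not given in the sources used here.

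Isoleucine is made from threonine, and valine from pyruvate, by a shared set of mitochondrial enzymes: acetohydroxyacid synthase, the reductoisomerase Ilv5 and the dehydratase Ilv3. Leucine branches off from the valine precursor ketoisovalerate through isopropylmalate, and the last step of all 3 routes is a transamination. The pathway is known for feedback inhibition of its first enzymes by its products, for transcriptional control by Leu3, which senses isopropylmalate, and for general amino acid control by Gcn4. The transaminases are a paralog pair in different compartments: Bat1 in the mitochondrial matrix, linked mainly to synthesis and known for high expression in growing cells, and Bat2 in the cytosol, linked to breakdown and known for higher expression as growth slows.

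Values are levels, the log2 processed signal minus the 75th percentile of the same array, and differences are F3 minus reference on that log2 scale, so a level says nothing of one gene against another. All 10 genes were well above background on all 6 arrays, with processed signals between 1241 and 88920 intensity units and none saturated. The 3 F3 arrays and the 3 reference arrays were scanned on different days and lay on different slides, with no slide holding both strains. The software marked the spot grid and the negative controls as out of range on every F3 array and on no reference array. Strain, slide and scan therefore cannot be told apart. In intensity units, the 75th percentile of F3 arrays lay between 8314 and 9534, and that of reference arrays between 2791 and 4973. Scaling to the spike-in RNAs instead raised every difference by 1.71, and with it the median of all tested genes to 1.76, against 0.05. Spike-in signals themselves ranged over 0.21 log2 units among F3 arrays and over 1.54 among reference arrays. "Rose" and "fell" below are therefore relative to the 75th percentile, and differences between genes of the same array do not depend on that choice. The software marked both MATa and MATα markers as above background on all arrays. MF(ALPHA)1 was dim, though, with signals between 34.3 and 37.6 in F3 and between 27.9 and 62.8 in the reference. Its spots differed by up to 0.78, so its difference is near the floor of the array. The MATa genes MFA1 and STE2 differed by −1.33 and −2.13, the MATα genes MF(ALPHA)1 and STE3 by −1.40 and 0.80, and a part of mating type in the results was not tested.

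Of the 10 genes, 6 were lower in F3, 1 was higher and 3 were not called by limma at an adjusted p under 0.05. Among all 5948 tested genes 79.7% were called, 38.2% lower and 41.5% higher, so 7 calls in 10 is close to the share over the array. ILV1, ILV3, ILV5 and LEU9 were between 2.92-fold and 3.31-fold lower in F3, ILV2 and LEU4 were 1.38-fold and 1.31-fold lower, and BAT2 rose 2.14-fold. Decreases of at least 2-fold were called for 4 of the 10, against 16.2% of the tested genes, and an increase of that size for 1, against 16.6%. With spike-in scaling 6 of the 10 were called higher, against 85.6% of the tested genes, and 0 lower, against 4.29% (also 0 at an unadjusted p under 0.05 in limma). The median difference over the 10 genes was −0.43, beside 0.05 over all tested genes. The arrays of the strains did not overlap for 9 of the 10, and for 82.4% of all tested genes.

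**Figure D1:**
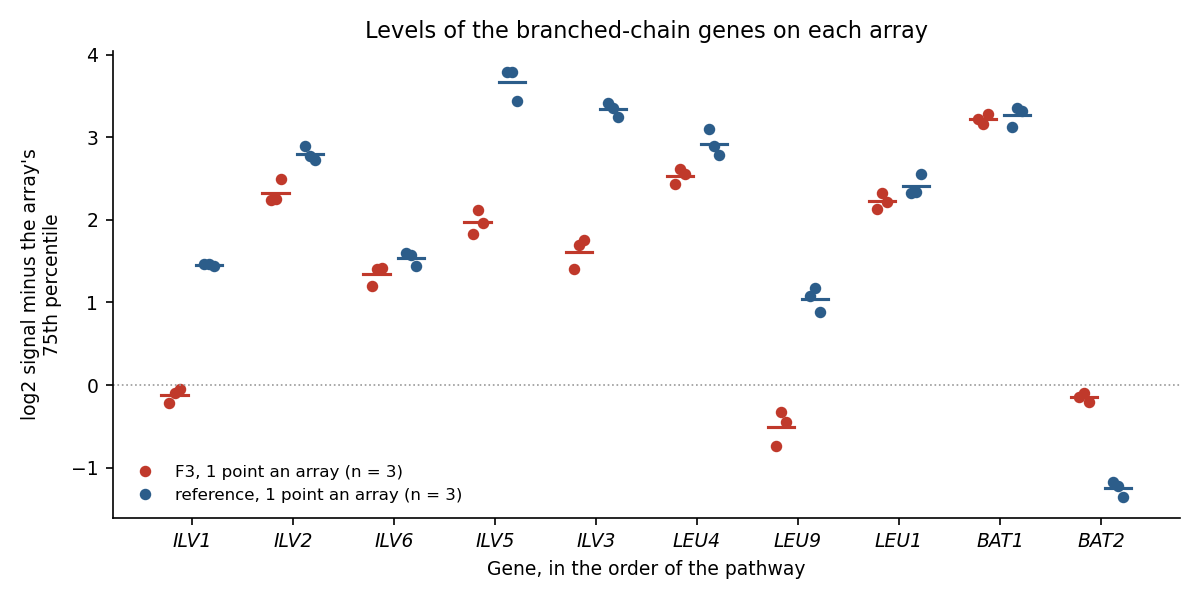
Levels of the 10 genes on each array (y axis, log2 signal minus the 75th percentile of the array), with F3 in red to the left of the reference in blue, 1 point an array and a line at the mean of 3 arrays. ILV1, ILV5, ILV3 and LEU9 lie clearly lower in F3, BAT2 lies higher, and BAT1 is the gene whose strains overlap.

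ILV1 (YER086W) encodes threonine deaminase, the mitochondrial enzyme that commits threonine to isoleucine and is inhibited by isoleucine. Its level was −0.22, −0.09 and −0.05 on the F3 arrays, against 1.46, 1.46 and 1.44 on the reference arrays. Every F3 array lay below every reference array, and the reference arrays were nearly identical. The difference was −1.57 ± 0.08 (SE of the fit, limma, adjusted p = 2.1e-07), which is 2.98-fold lower in F3. Only 8.84% of the tested genes had a more negative difference.

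ILV2 (YMR108W) and ILV6 (YCL009C) encode the subunits of acetohydroxyacid synthase, ILV2 the catalytic subunit and ILV6 the regulatory subunit through which valine inhibits the enzyme. ILV2 had levels of 2.24, 2.25 and 2.49 in F3, against 2.89, 2.77 and 2.73 in the reference. The strains were separated, though by little, and ILV2 fell by 0.47 (SE 0.09, limma, adjusted p = 0.00164). ILV6 had levels of 1.20, 1.41 and 1.42 in F3, against 1.60, 1.58 and 1.44 in the reference. The highest F3 array nearly reached the lowest reference array, and the difference of −0.20 was not called (95% interval −0.40 to 0.01, limma, adjusted p = 0.0733). It was called without reference replicate 3 (−0.24, adjusted p = 0.0481) and with normexp background correction and quantile normalization (−0.24, adjusted p = 0.0183).

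ILV5 (YLR355C) encodes acetohydroxyacid reductoisomerase, an abundant mitochondrial enzyme that also helps to maintain mitochondrial DNA. Its level was 1.83, 2.12 and 1.96 in F3, against 3.79, 3.79 and 3.44 in the reference. ILV3 (YJR016C) encodes dihydroxyacid dehydratase, an iron-sulfur enzyme that yields the keto acid precursors of isoleucine and valine. Its level was 1.40, 1.69 and 1.76 in F3, against 3.41, 3.36 and 3.25 in the reference. For both genes the gap between the strains was several times the spread within a strain. ILV5 fell by 1.70 (SE 0.12, limma, adjusted p = 2.0e-06) and ILV3 by 1.73 (SE 0.11, limma, adjusted p = 8.9e-07), which are 3.26-fold and 3.31-fold lower values in F3. ILV5 and ILV3, which act directly after acetohydroxyacid synthase, were thus at least 2-fold lower, and ILV2 and ILV6 were not. With spike-in scaling ILV5 was at 0.01, ILV3 at −0.02 and ILV1 at 0.14, none of them called.

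LEU4 (YNL104C) and LEU9 (YOR108W) are paralogs for isopropylmalate synthase, the enzyme that opens the leucine branch. LEU4 encodes the major form, which is inhibited by leucine. LEU4 had levels of 2.44, 2.61 and 2.55 in F3, against 3.1, 2.89 and 2.78 in the reference. The strains did not overlap, and LEU4 fell by 0.39 (SE 0.10, limma, adjusted p = 0.00609). LEU4 was not called by limma with quantile normalization (−0.19, adjusted p = 0.101), with the same after normexp (−0.20, adjusted p = 0.0569) or with the authors' deposited values (−0.17, adjusted p = 0.146). LEU9 had levels of −0.74, −0.32 and −0.45 in F3, against 1.08, 1.17 and 0.88 in the reference. LEU9 fell by 1.55 (SE 0.12, limma, adjusted p = 4.9e-06), which is 2.92-fold lower in F3. LEU1 (YGL009C) encodes isopropylmalate isomerase, an iron-sulfur enzyme of the cytosol. Its levels were 2.13, 2.32 and 2.22 in F3, against 2.33, 2.34 and 2.55 in the reference, with the strains all but touching. Its difference of −0.19 was not called (95% interval −0.39 to 0.02, limma, adjusted p = 0.0913).

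BAT1 (YHR208W), the mitochondrial transaminase gene, had levels of 3.22, 3.16 and 3.28 in F3, against 3.12, 3.35 and 3.32 in the reference. The strains overlapped, and the difference of −0.04 was not called (95% interval −0.24 to 0.16, limma, adjusted p = 0.671). The spots of the BAT1 probe differed by up to 0.30 on an array, near the 0.27 of LEU1. The SD of the BAT1 level, averaged over spots, was 0.06 over the F3 arrays and 0.13 over the reference arrays. BAT1 was called higher in F3 by limma after normexp with quantile normalization (0.22, adjusted p = 0.0430), and likewise with the authors' deposited values (0.22, adjusted p = 0.0372). BAT2 (YJR148W), the cytosolic transaminase gene, had levels of −0.15, −0.09 and −0.20 in F3, against −1.17, −1.22 and −1.35 in the reference. All F3 arrays lay above all reference arrays, with less spread within a strain than between. BAT2 rose by 1.10 (SE 0.08, limma, adjusted p = 2.4e-06), and 14.6% of the tested genes had a larger difference. It was the 1 gene of the 10 called higher, and it was called higher under every alternative tried, with differences between 0.99 and 2.81.

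**Figure D2:**
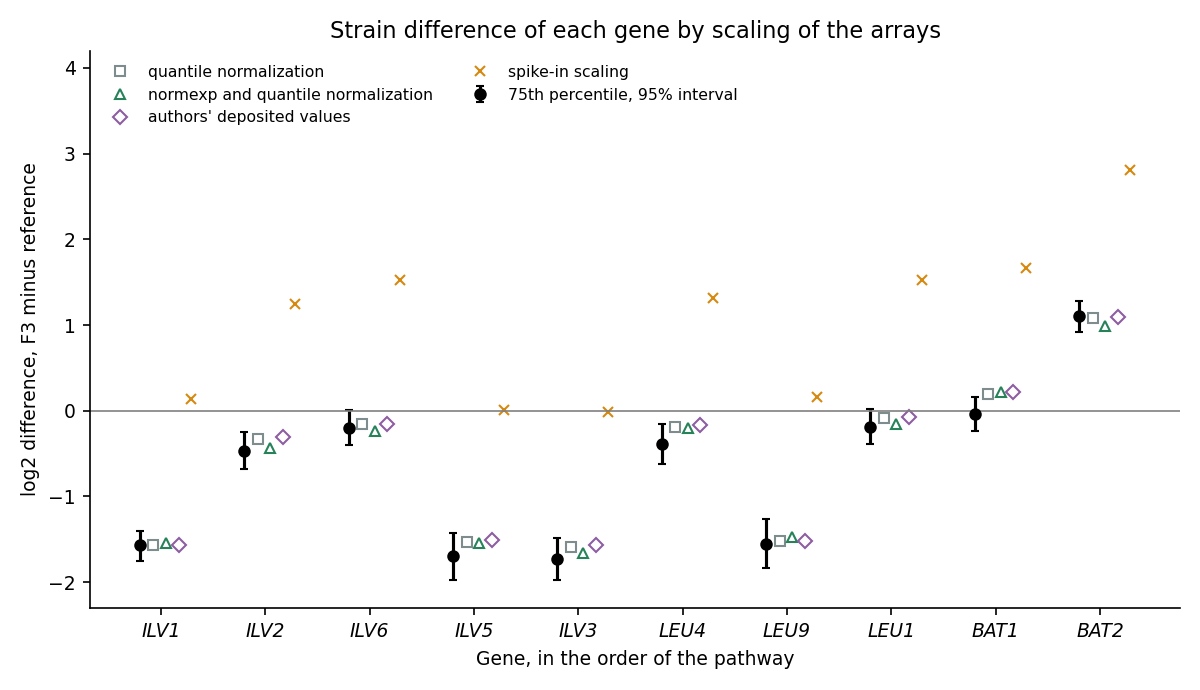
Difference of each gene (y axis, log2, F3 minus reference), with the 95% interval of the limma fit at 75th percentile scaling in black and the estimates under 4 other scalings or value sources as open or crossed symbols. Apart from spike-in scaling, the other estimates for BAT1 lie above its interval, at up to 0.22, and those for LEU4 lie nearer 0, between −0.20 and −0.17. Spike-in scaling lifts all genes by the same 1.71.

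The contrast between the transaminases was read within each array, where scaling to a percentile, a median or spike-in RNAs has no effect. The level of BAT1 minus that of BAT2 was 3.37, 3.25 and 3.48 on the F3 arrays, against 4.28, 4.57 and 4.67 on the reference arrays. The F3 values were all lower, without overlap. The size of this quantity on 1 array has no meaning across probes, but its change does: the BAT1 to BAT2 signal ratio was 2.21-fold lower in F3 (log2 difference −1.14 ± 0.13 SE, n = 3 each). With 3 arrays against 3, the exact two-sided permutation test gives p = 0.1, the smallest it can give, and p = 0.1 after adjustment over the 3 pairs compared. The change was smaller with quantile normalization (−0.89), normexp and quantile normalization (−0.77) and the authors' deposited values (−0.86), each with the same sign.

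The other pairs were read in the same way. LEU4 minus LEU9 was 3.19, 2.93 and 3.0 in F3, against 2.03, 1.71 and 1.90 in the reference. In F3 the ratio of the LEU4 to the LEU9 signal was higher by 2.23-fold, a change of 1.16 ± 0.12 on the log2 scale (SE, exact permutation p = 0.1), without overlap. For the synthase subunits, ILV2 minus ILV6 was 1.04, 0.84 and 1.07 in F3, against 1.29, 1.19 and 1.28 in the reference. That change of −0.27 ± 0.08 (SE, exact permutation p = 0.1) was also without overlap and was the smallest of the 3. It was smaller still with quantile normalization (−0.16) and with the authors' deposited values (−0.15). Relative to the 75th percentile, 1 gene of each paralog pair moved by more than 2-fold and its partner by less: LEU9 was 2.92-fold lower and LEU4 1.31-fold lower, and BAT2 was 2.14-fold higher while BAT1, at 1.03-fold lower, was not called. Which paralog moved depends on the scaling: with spike-in scaling LEU4 lay at 1.32 and LEU9 at 0.16, and BAT1 at 1.67 and BAT2 at 2.81. The probe sequences were not used here, so cross-hybridisation between paralogs was not tested.

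**Figure D3:**
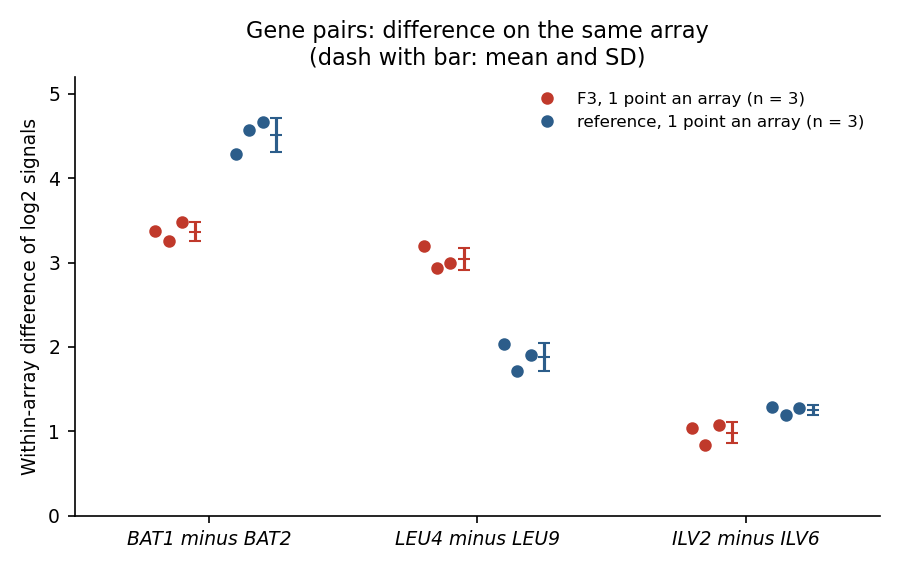
Within-array difference of the log2 signals of 3 gene pairs (y axis), with F3 in red to the left of the reference in blue, 1 point an array, and mean and SD over 3 arrays beside them. BAT1 minus BAT2 lies lower in F3, LEU4 minus LEU9 lies higher, and ILV2 minus ILV6 lies slightly lower.

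A second reading free of the scaling set each gene against the mean of all 10 on the same array. That mean was 1.34, 1.51 and 1.5 on the F3 arrays, against 2.16, 2.15 and 2.05 on the reference arrays, a difference of −0.67. Relative to it, ILV3, ILV5, ILV1 and LEU9 stood lower in F3 by −1.05, −1.03, −0.90 and −0.87. ILV2, LEU4, ILV6, LEU1 and BAT1 stood higher by 0.21, 0.28, 0.48, 0.49 and 0.63, and BAT2 by 1.77. The mean includes each gene itself, so the values lie on both sides of 0 by construction. They describe the spread among the genes and carry no test.

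The genes lie on 9 of the chromosomes, with ILV3 and BAT2 both on chromosome X in the R64 annotation. Their 20 immediate neighbours were all tested, and 12 were called higher, 6 lower and 2 not called, with a median difference of 0.49. Over all tested genes 41.5% were called higher and 38.2% lower, with a median of 0.05. Of the 14 neighbours of the 7 called genes, 5 had the direction of the gene beside them, a count that carries no test. By the distance between levels centred on each gene's mean over the 6 arrays, the named genes outside the pathway most like BAT1 were GCR1, STT4 and MET16, with differences of −0.06, −0.08 and 0.03. Those most like BAT2 were SHE4, RTT103 and NVJ2, with differences of 1.06, 1.03 and 1.14. These were the closest of 4864 genes compared and describe likeness over 6 arrays of 2 strains.

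In the rest of the leucine branch 2 of 3 genes fell, where 38.2% of all tested genes were called lower. LEU2, which encodes the isopropylmalate dehydrogenase between Leu1 and the transaminases, averaged 2.56 ± 0.02 over the F3 arrays and 3.43 ± 0.06 over the reference arrays (SD, n = 3 each) and fell by 0.87 (SE 0.07, limma, adjusted p = 5.4e-06). OAC1, a mitochondrial carrier that can export isopropylmalate, averaged −1.11 ± 0.18 over the F3 arrays and 0.07 ± 0.06 over the reference arrays (SD, n = 3 each) and fell by 1.19 (SE 0.10, limma, adjusted p = 6.9e-06). LEU5, a carrier needed for mitochondrial coenzyme A, differed by −0.16 and was not called. With spike-in scaling LEU2 lay at 0.84 and OAC1 at 0.52.

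Of 9 genes known as targets of Leu3, 7 fell and 2 were not called, where 38.2% of all tested genes were called lower. Of these 9, 5 belong to the pathway genes already counted above. Their median was −0.66, and spike-in scaling gave 1.05 with 6 called higher. Beyond those and LEU2 and OAC1, GDH1, the main glutamate dehydrogenase for ammonium assimilation, fell by 0.66 (SE 0.10), and BAP2, a permease, fell by 2.04 (SE 0.08). The 2 not called were BAT1 and LEU1. Among the regulators, the LEU3 transcript averaged −2.74 ± 0.05 over the F3 arrays and −2.71 ± 0.13 over the reference arrays (SD, n = 3 each) and was not called, at a difference of −0.03 (limma, adjusted p = 0.721). GCN4 averaged 1.64 ± 0.06 over the F3 arrays and 3.50 ± 0.08 over the reference arrays (SD, n = 3 each) and was called lower, a call that did not hold under spike-in scaling (−0.15, limma, adjusted p = 0.632). GCN2, the kinase that acts on Gcn4 synthesis, fell by 0.39 (SE 0.08, limma, adjusted p = 0.00198). With spike-in scaling GCN2 was called higher instead (1.32, limma, adjusted p = 1.1e-05). GCN4 is controlled largely in translation, so its transcript level does not report the protein.

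Of 5 genes of threonine synthesis, which supplies Ilv1, 2 fell and 3 were not called, with a median of −0.09. Over all tested genes 38.2% were called lower, so this count is close to the share over the array. With spike-in scaling all 5 were called higher, against 85.6% of the tested genes, and their median was 1.62. THR1, homoserine kinase, fell by 0.72 (SE 0.10), and THR4, threonine synthase, by 0.19 (SE 0.07, limma, adjusted p = 0.0409), but was not called with quantile normalization, after normexp or with the authors' deposited values. HOM3, the aspartate kinase that opens the route, differed by −0.09, HOM2, the next enzyme of the route, by −0.08 and HOM6, homoserine dehydrogenase, by 0.21. With quantile normalization and with the authors' deposited values, HOM2 (0.24 and 0.27) and HOM6 (0.43 and 0.44) were called higher by limma. Of the other deaminases, CHA1, a catabolic serine and threonine deaminase, differed by −0.13 and was not called. CHA1 was called lower with quantile normalization (−0.29), after normexp (−0.35) and with the authors' deposited values (−0.28), and higher with spike-in scaling (1.58). MMF1, a mitochondrial protein of the RidA family linked to isoleucine synthesis, rose by 0.42 (SE 0.10, limma, adjusted p = 0.00321), and its relative HMF1 differed by 0.20 (limma, adjusted p = 0.0570), or 0.23 after normexp with quantile normalization, where it was called (limma, adjusted p = 0.0352).

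Uptake and onward use of the same compounds differed in both directions. Of 5 permeases that carry branched-chain amino acids, 3 fell and 1 rose, where 38.2% of all tested genes were called lower and 41.5% higher. Their median was −2.04, or −0.32 under spike-in scaling. Besides BAP2, BAP3 fell by 2.56 (SE 0.20) and GNP1 fell by 2.42 (SE 0.23), while AGP1, a broad permease, rose by 0.69 (SE 0.14). TAT1 differed by −0.28 and was not called. It was called lower with quantile normalization (−0.69), after normexp (−0.50) and with the authors' deposited values (−0.66), and higher with spike-in scaling (1.43). In the route from ketoisovalerate to pantothenate, ECM31 and PAN6 fell by 0.54 and 0.40, PAN5 was not called, and FMS1, the polyamine oxidase that supplies beta-alanine, rose by 1.16 (SE 0.08). With spike-in scaling all 4 genes of this route were called higher, with a median of 1.44. Of the 5 genes of the 2-oxo acid decarboxylase family, which acts on pyruvate and on the keto acids of breakdown, ARO10 rose by 2.26 (SE 0.21) and PDC6 by 1.33 (SE 0.09). ARO10 was dim, with signals of 13.9, 19.0 and 24.1 on the reference arrays, against 174, 284 and 150 on the F3 arrays. Its spots differed by up to 0.55, so the size of its rise is uncertain. PDC5 fell by 3.12 (SE 0.27), with uneven levels of 0.97, 1.12 and 2.11 on the reference arrays. THI3 fell by 0.30 (SE 0.10) and PDC1 by 0.68 (SE 0.16), the last not called with quantile normalization (−0.06), with normexp (−0.09) or with the authors' deposited values (−0.04). With spike-in scaling 4 of these 5 genes were called higher, against 85.6% of the tested genes, and 1 lower, with a median of 1.41.

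Ilv3 and Leu1 depend on iron-sulfur cluster assembly. Of its 16 genes 6 rose, 8 fell and 2 were not called, where 41.5% of all tested genes were called higher and 38.2% lower. Their median was −0.18, or 1.53 when scaled to the spike-in RNAs. With that scaling 13 of the 16 were called higher, against 85.6% of the tested genes, and 0 lower, against 4.29%. The mitochondrial scaffold gene ISU1 rose by 1.25 (SE 0.10), the co-chaperone JAC1 by 1.17 (SE 0.08) and the chaperone SSQ1 by 0.88 (SE 0.07). The second scaffold gene, ISU2, fell by 0.79 (SE 0.08), and ATM1, the exporter of the mitochondrial inner membrane, by 1.08 (SE 0.12). In the cytosolic machinery CFD1 fell by 1.64 (SE 0.08), CIA2 by 1.26 (SE 0.10) and NAR1 by 1.23 (SE 0.12), while NBP35, the partner of CFD1, rose by 0.66 (SE 0.10). The cysteine desulfurase gene NFS1 differed by −0.14 and was not called.

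**Figure D4:**
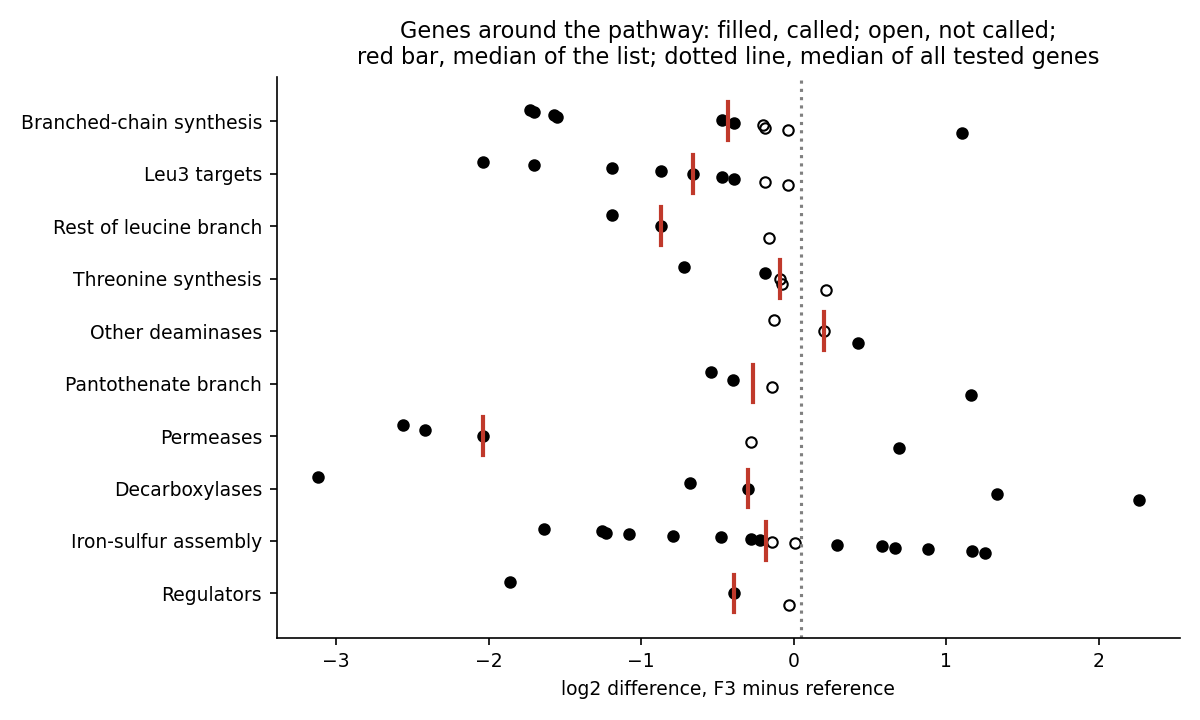
Differences (x axis, log2, F3 minus reference) of the genes in each list around the pathway, filled where limma called the gene and open where it did not, with the median of each list in red and the median of all tested genes as a dotted line at 0.05. The permease list has the lowest median, −2.04, and the lists of decarboxylases and iron-sulfur assembly spread to both sides of 0.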

How the data were processed

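The members and gene lists were chosen with earlier results of these data known. Per the file headers, the authors used Agilent Feature Extraction 10.7.3.1 for the spots (the submitters' processing notes name version 9.1). The deposited processed signal is an intensity, background-subtracted and detrended within each array and not normalized between arrays. The authors' deposited value table holds log2 values centred per probe. Against scanner values centred alike, its columns had r between 0.9877 and 0.9931 and its column medians were 0.0098, 0.0 and 0.0110 (F3 replicates) and −0.0055, −0.0056 and −0.0141 (reference replicates). Its scale and direction are thus known and its scaling between arrays is not. Its differences lay close to those with quantile normalization (0.22 and 0.20 for BAT1, −0.17 and −0.19 for LEU4, −1.57 and −1.59 for ILV3). Results under those settings are therefore not separate checks.

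Each gene has 1 probe with 2 spots, whose log2 signals were averaged and scaled by subtracting each array's 75th percentile. Genes well above background on at least 3 arrays (5948) entered a two-sided limma fit (version 3.58.1, R 4.3.3) with empirical Bayes moderation and Benjamini-Hochberg adjustment over all of them. In simulated data of 5948 genes, 95% of the 2-fold changes put in were recovered, and 5.80% of the calls were false. There, few genes were changed, the noise was independent and no scan or slide offset was added. In the real data 79.7% of the genes were called, so these shares do not carry over to the strain comparison. The number of arrays limits the precision. Replicates are separate cultures per the series design. Names come from the RefSeq table of R64: 5756 by locus tag, 4 by synonym, with the file's own name for the other 496. No coordinates or sequences are given, since the grid names another build and probe sequences were not used here. Named outside the members are genes of the lists, and the 3 with a standard name nearest to BAT1 and to BAT2. Alternatives were other normalizations and background correction, filters, the authors' values, slide and replicate blocks, and leaving out each array. The slide block cannot remove a slide difference between the strains, since no slide held both.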

Additional observations from a re-analysis of the deposited data

How the results depend on the processing

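The number of the 10 genes called (7) stayed between 6 and 8 under all 15 alternatives, and 7 to 8 were called when 1 array was left out. Directions depended on spike-in scaling, which called 6 genes higher and 0 lower (also 0 lower at an unadjusted p under 0.05), and 5092 of all tested genes higher and 255 lower. Differences under it were 0.14 for ILV1, 1.24 for ILV2, −0.02 for ILV3, 0.01 for ILV5, 1.52 for ILV6 and LEU1, 1.32 for LEU4 and 0.16 for LEU9. They were 1.67 for BAT1, 2.81 for BAT2, 0.84 for LEU2, 1.68 for LEU3, 0.52 for OAC1 and −0.15 for GCN4. The calls of ILV1, ILV3, ILV5, LEU9, OAC1 and GCN4 were lost, and ILV2, LEU4 and LEU2 were called higher instead of lower. This scaling adds the same value to every gene, by construction. With normexp and quantile normalization and with the authors' deposited values 2 genes were called higher, BAT1 (0.22 in each) beside BAT2, for which the cause was not tested. BAT1 minus BAT2 was −0.89 with quantile normalization, −0.77 with normexp and −0.86 with the authors' deposited values, and between −1.25 and −1.06 when an array was left out. Replicate numbers did not pair the arrays: deviations of same-numbered arrays correlated with −0.153, 0.081 and −0.251, and 2 of 6 arrays correlated best with their own number. With the replicate number as a block 7 genes were called, 6 lower and 1 higher, and 2384 genes were called higher and 2211 lower over the array. With 3 arrays a strain, the ILV6 and LEU1 intervals leave room for decreases of up to 0.40 and 0.39.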
